A study of Mus musculus with 11 samples.

Results

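This account describes 9 genes for acetylcholine receptors expressed in cortex, taken by symbol from the 32531 genes counted in each of 11 RNA sequencing libraries. The nicotinic subunit genes are Chrna4, Chrnb2, Chrna7, Chrna5 and Chrna3, and the muscarinic receptor genes are Chrm1, Chrm3, Chrm2 and Chrm4. All libraries came from adult Glt25d2-EGFP/Rpl10a (DU9) mice, in which the promoter of Glt25d2 (today Colgalt2), active in pyramidal neurons of cortical layer 5, drives a ribosomal protein tagged with EGFP. Translating ribosome affinity purification (TRAP) pulls the tagged ribosomes and their RNA out of a tissue lysate with anti-EGFP antibodies. In a short-access intravenous self-administration experiment, immunopurified (IP) libraries numbered 1 to 3 were made from each of 3 groups: mice that self-administered cocaine, yoked controls, and mice that self-administered saline. There was also 1 input library (total RNA before the pull-down) from the saline group and 1 unbound library (RNA left after it) from the cocaine group. All groups, controls included, carried the transgene. The tissue label is cerebral cortex, while the extraction text names striatum. The labels give neither sex, nor what yoked animals received, nor how many animals stand behind a library, and a p-value therefore measures the spread between libraries, which may be technical. Each group ran on its own sequencing lane, the input and the unbound library on lanes of their own, so that group or fraction and lane cannot be told apart. IP libraries of the same number carried the same index sequence in all 3 groups, so number and index cannot be told apart either. The unbound library has the library number 912, whereas the others have 438 to 447.

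Acetylcholine acts on receptors of the nicotinic and the muscarinic class. Nicotinic receptors are ion channels built from several subunits. In cortex most of them combine α4 with β2 subunits, some with the accessory α5 subunit, while α7 forms channels of its own. Muscarinic receptors couple to G proteins: M1 and M3 (Chrm1, Chrm3) act through Gq, phospholipase C and the closing of M-type potassium channels, and M2 and M4 (Chrm2, Chrm4) act through Gi/o, which inhibits adenylyl cyclase and opens inwardly rectifying potassium channels. In layer 6 pyramidal neurons α5 accompanies α4 and β2, and in deep layers generally M1 is the main excitatory muscarinic receptor.

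Total gene counts were 20926712 to 53862653 per library, and all 9 receptor genes were counted in all 11 libraries and passed the expression filter, which kept 16417 genes. Layer 5 markers were present in every IP library, at a summed 756 to 1347 counts after scaling to equal library sizes (CPM) in cocaine libraries, 738.6 to 1361 CPM in yoked libraries and 843.7 to 1559 CPM in saline libraries, against 787.4 CPM in the input. In each group the highest of these sums was the library numbered 1, and these 3 libraries had 1347 to 1559 CPM. The 6 libraries numbered 2 or 3 had 738.6 to 944.5 CPM, around the sums of the input and of the unbound library (794.4 CPM). By this measure only the libraries numbered 1 stood well above the RNA that was not pulled down. Colgalt2 itself had between 136.4 and 150.0 CPM in number 1. It had between 77.3 and 103.9 CPM in the 6 libraries numbered 2 or 3, against 81.5 CPM in the input. The libraries numbered 1 stood apart from the rest on the first principal component, which held 66.6% of the variance. Results that touch this split are therefore given by number as well.

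Per length, Chrm1 was the highest of the 9 genes and Chrna3 the lowest. Divided by the length of exon sequence in kilobases (GENCODE M21), Chrm1 averaged 14.0 ± 0.778 CPM per kilobase (SD over the 9 IP libraries, as for the values that follow) and Chrna4 9.49 ± 1.09. Their ranges, 13.1 to 15.5 and 7.77 to 10.8 CPM per kilobase, did not overlap. Chrm4 followed at 4.92 ± 1.06, and its range began at 3.17 CPM per kilobase, inside that of Chrnb2, which averaged 2.88 ± 0.376. Chrm3 averaged 2.69 ± 0.247 CPM per kilobase, and Chrnb2 and Chrm3 did not differ beyond their spread. Chrna7 came next at 1.02 ± 0.261. Below it Chrm2 averaged 0.461 ± 0.160, Chrna5 0.339 ± 0.148 and Chrna3 0.108 ± 0.0323 CPM per kilobase, and the ranges of Chrm2 and Chrna5 overlapped, as did those of Chrna5 and Chrna3. The gene model of Chrm4 is a single coding exon on which all its reads were divided, whereas RefSeq starts the gene further upstream, so its level per length depends on the annotation. With the longest transcript as the length, Chrm3 at 3.88 CPM per kilobase came before Chrnb2 at 3.77.

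**Figure D1:**
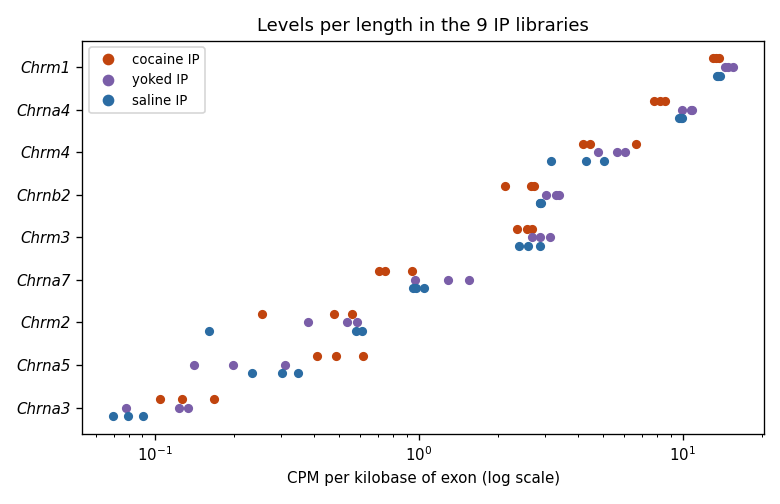
CPM per kilobase of exon, on a log axis, for each receptor gene in the 9 IP libraries, coloured by group. Chrm1 lay between 13.1 and 15.5 CPM per kilobase and Chrna3 between 0.0699 and 0.167, with Chrnb2 and Chrm3 in the same range.

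In every cocaine library the genes of α4 and β2, the subunits of the main cortical nicotinic receptor, had lower CPM than in any yoked library, and the gene of the accessory subunit α5 had higher CPM. None of these 3 differences passed the test over all genes (adjusted p = 0.972 for each in edgeR). Their promoters are shown here because, once values were seen, these were the 3 genes whose cocaine libraries did not overlap either the yoked or the saline libraries. The windows run from 250 bases before to 50 bases after a RefSeq transcript start (GRCm38.p6), 5′ to 3′ on the gene's strand, and capitals mark the GC box GGGCGG or its reverse complement. RefSeq gives Chrna5 more than 1 start, and both windows found are shown. Its locus of Chrna4 extends upstream of the window shown, to 181043579, so that this window lies at an internal start of Chrna4. The windows are chr2:181039128-181039427 (minus strand) for Chrna4, chr3:89764583-89764882 (minus strand) for Chrnb2, and chr9:54980630-54980929 and chr9:54981238-54981537 (plus strand) for Chrna5.
Chrna4: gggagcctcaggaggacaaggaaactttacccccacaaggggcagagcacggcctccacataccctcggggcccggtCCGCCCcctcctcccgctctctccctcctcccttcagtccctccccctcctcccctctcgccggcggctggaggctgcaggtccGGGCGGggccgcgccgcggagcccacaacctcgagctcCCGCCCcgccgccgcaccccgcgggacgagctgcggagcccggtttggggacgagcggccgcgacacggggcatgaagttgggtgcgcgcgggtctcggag
Chrnb2: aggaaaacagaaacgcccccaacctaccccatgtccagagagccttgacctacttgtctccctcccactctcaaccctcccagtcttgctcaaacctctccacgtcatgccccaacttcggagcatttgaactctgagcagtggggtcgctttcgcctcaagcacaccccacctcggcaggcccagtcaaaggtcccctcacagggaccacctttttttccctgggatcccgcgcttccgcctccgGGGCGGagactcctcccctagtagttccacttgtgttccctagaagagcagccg
Chrna5, upstream start: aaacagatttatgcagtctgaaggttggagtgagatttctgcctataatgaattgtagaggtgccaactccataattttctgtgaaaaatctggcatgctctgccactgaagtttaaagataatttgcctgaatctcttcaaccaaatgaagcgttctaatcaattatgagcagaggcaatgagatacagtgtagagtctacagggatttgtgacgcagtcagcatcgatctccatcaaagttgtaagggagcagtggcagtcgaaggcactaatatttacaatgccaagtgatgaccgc
Chrna5, downstream start: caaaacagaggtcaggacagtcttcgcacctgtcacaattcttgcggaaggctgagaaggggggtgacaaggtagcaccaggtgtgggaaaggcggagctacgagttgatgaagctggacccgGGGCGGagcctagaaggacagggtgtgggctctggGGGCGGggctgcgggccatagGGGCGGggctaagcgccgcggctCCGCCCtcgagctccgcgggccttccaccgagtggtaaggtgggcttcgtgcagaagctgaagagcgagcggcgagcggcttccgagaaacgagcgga

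Of the 9 genes, 8 had a window, 9 windows in all, and Chrm1 had none. The Chrna4 window is 74.3% G or C and holds 3 GC boxes. Its counterpart for Chrnb2 is 59.0% G or C with 1 GC box. The Chrna5 windows differ from each other, with 41.3% G or C and no GC box at the upstream start, against 65.0% and 4 GC boxes at the downstream start. Over all 32851 promoter windows the median was 52.7% G or C, and 35.7% held a GC box on either strand. Searched on both strands, neither the cAMP response element TGACGTCA (1.79% of all windows) nor the TATA box TATAAA (13.6%) was found in the 9 windows, and the E-box CACGTG (7.15%) was found once, in Chrna7. These letters are a description of the windows and say nothing of binding.

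Cocaine against yoked asks what differed between animals that took cocaine and their yoked controls. Chrna4 encodes the α4 subunit, which with β2 forms the high-affinity nicotine site. Chrna4 (chromosome 2, 181018380 to 181043546, minus strand, GRCm38, as for all gene positions here) stood at 40.0, 42.9 and 40.9 CPM in cocaine libraries 1, 2 and 3, against 54.6, 49.5 and 54.9 CPM in yoked libraries 1, 2 and 3. The groups did not overlap, and cocaine was lower within each number. The fitted difference was a log2 fold change of −0.36 ± 0.13 (SE; unadjusted p = 0.0218, adjusted p = 0.972, edgeR quasi-likelihood test with Benjamini-Hochberg adjustment over 16417 genes, n = 3 each), so it did not pass the threshold of 0.05. As these are bulk RNA values, fewer cells that make a transcript and less transcript per cell cannot be told apart, here and below.

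Chrnb2 encodes β2, the partner of α4. It lies on chromosome 3 (89746195 to 89764632, minus strand) and stood at 18.3, 22.3 and 22.8 CPM in cocaine libraries, against 28.8, 25.3 and 28.0 CPM in yoked libraries. All 3 cocaine values lay below the lowest yoked value. The log2 fold change was −0.38 ± 0.15 (SE; unadjusted p = 0.0327, adjusted p = 0.972 in edgeR), also short of the threshold. It was −0.24 with a trend by gene length removed and −0.24 without every library numbered 1. In GENCODE M21, exons of Adar, on the other strand, share 1365 bases (16.3%) with the exons of Chrnb2, whereas in RefSeq the genes overlap by 8 bases, and the sources used here do not give the annotation or the strand setting of the counting; Chrnb2 counts may include reads of Adar.

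Chrna5 encodes α5, which joins α4 and β2 as an accessory subunit and lies on chromosome 9 (54980880 to 55007779, plus strand). In raw counts it had 64, 66 and 48 in cocaine libraries 1, 2 and 3, against 17, 38 and 21 in yoked libraries. Scaled, these were 1.56, 1.92 and 1.28 CPM in cocaine libraries, against 0.446, 0.969 and 0.624 CPM in yoked libraries. Every cocaine library was above every yoked library, with log2 differences of 1.81, 0.99 and 1.04 within numbers 1, 2 and 3. The fitted log2 fold change was 1.22 ± 0.39 (SE; 95% interval 0.34 to 2.10, unadjusted p = 0.0122, adjusted p = 0.972 in edgeR). Counting error is a large part of these values: the 17 counts of yoked library 1 have an exact 95% Poisson interval of 9.90 to 27.2, and the 48 counts of cocaine library 3 one of 35.4 to 63.6. Such intervals cover counting error only. RefSeq has the ends of Chrna5 and Chrna3 overlapping by 1304 bases on opposite strands, where reads may belong to either gene, and GENCODE M21 has no overlap of their exons.

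Chrna7, the subunit of fast, calcium-permeable homomeric channels (chromosome 7, 63098692 to 63212569, minus strand), had 4.37, 3.35 and 3.18 CPM in cocaine libraries, against 5.88, 4.36 and 7.04 CPM in yoked libraries. The highest cocaine library and the lowest yoked library were nearly equal, and cocaine was lower within each number. The log2 fold change was −0.66 ± 0.23 (SE; unadjusted p = 0.0194, adjusted p = 0.972 in edgeR). Chrna3, the α3 subunit of autonomic ganglia and the habenula (chromosome 9, 55010111 to 55026562, minus strand), had 37, 19 and 25 counts in cocaine libraries, against 25, 16 and 24 counts in yoked libraries. These groups overlapped, and the log2 fold change was 0.26 ± 0.42 (SE; 95% interval −0.70 to 1.22).

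Among the muscarinic genes, Chrm1 (chromosome 19, 8663789 to 8683587, plus strand) had 89.1, 88.8 and 84.4 CPM in cocaine libraries, against 101.2, 95.8 and 94.5 CPM in yoked libraries. The values did not overlap, though the difference was small, at a log2 fold change of −0.15 ± 0.13 (SE; 95% interval −0.44 to 0.14). Chrm3 (chromosome 13, 9875486 to 10360847, minus strand) had 16.4, 14.8 and 16.7 CPM in cocaine libraries, against 19.8, 17.9 and 16.8 CPM in yoked libraries. Its groups were barely apart, with a log2 fold change of −0.19 ± 0.16 (SE; 95% interval −0.54 to 0.16). The Gi/o-coupled receptors overlapped between the groups. Chrm2 (chromosome 6, 36388084 to 36528414, plus strand) differed by −0.22 ± 0.49 and Chrm4 (chromosome 2, 91927249 to 91928688, plus strand) by −0.10 ± 0.26 (log2 fold change ± SE), with 95% intervals of −1.33 to 0.89 and −0.67 to 0.48.

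No receptor gene passed the adjusted threshold for cocaine against yoked, where edgeR and DESeq2 called 0 of all genes tested (0% in edgeR). At an unadjusted p under 0.05 the receptor genes counted 4 of 9 (Chrna4, Chrnb2, Chrna7 and Chrna5), beside 182 of 16417 genes (1.11%). Libraries of the groups did not overlap for 5 of the 9 receptor genes, against 5.62% of all genes. Of these, Chrna4, Chrnb2, Chrm1 and Chrm3 were lower in cocaine (2.55% of all genes) and Chrna5 was higher (3.08% of all genes). Scaled over all 11 libraries, Chrna7 did not overlap and Chrm3 did, so both sit at the edge of this count. Over the 9 receptor genes the median log2 fold change was −0.19, beside 0.01 over all genes tested. With the replicate number as a block, the lowest adjusted p among the receptor genes was 0.143, for Chrna5, beside 0.147 for Chrna4, 0.152 for Chrna7 and 0.162 for Chrnb2 in edgeR. The fit without this block counts the split by number as spread. Ranked by unadjusted p in it, Chrna5, Chrna7, Chrna4 and Chrnb2 stood at 12, 28, 32 and 66 of 16417 genes. With the block they stood at 665, 851, 706 and 1131, so the share of 1.11% holds only for the fit without it.

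**Figure D2:**
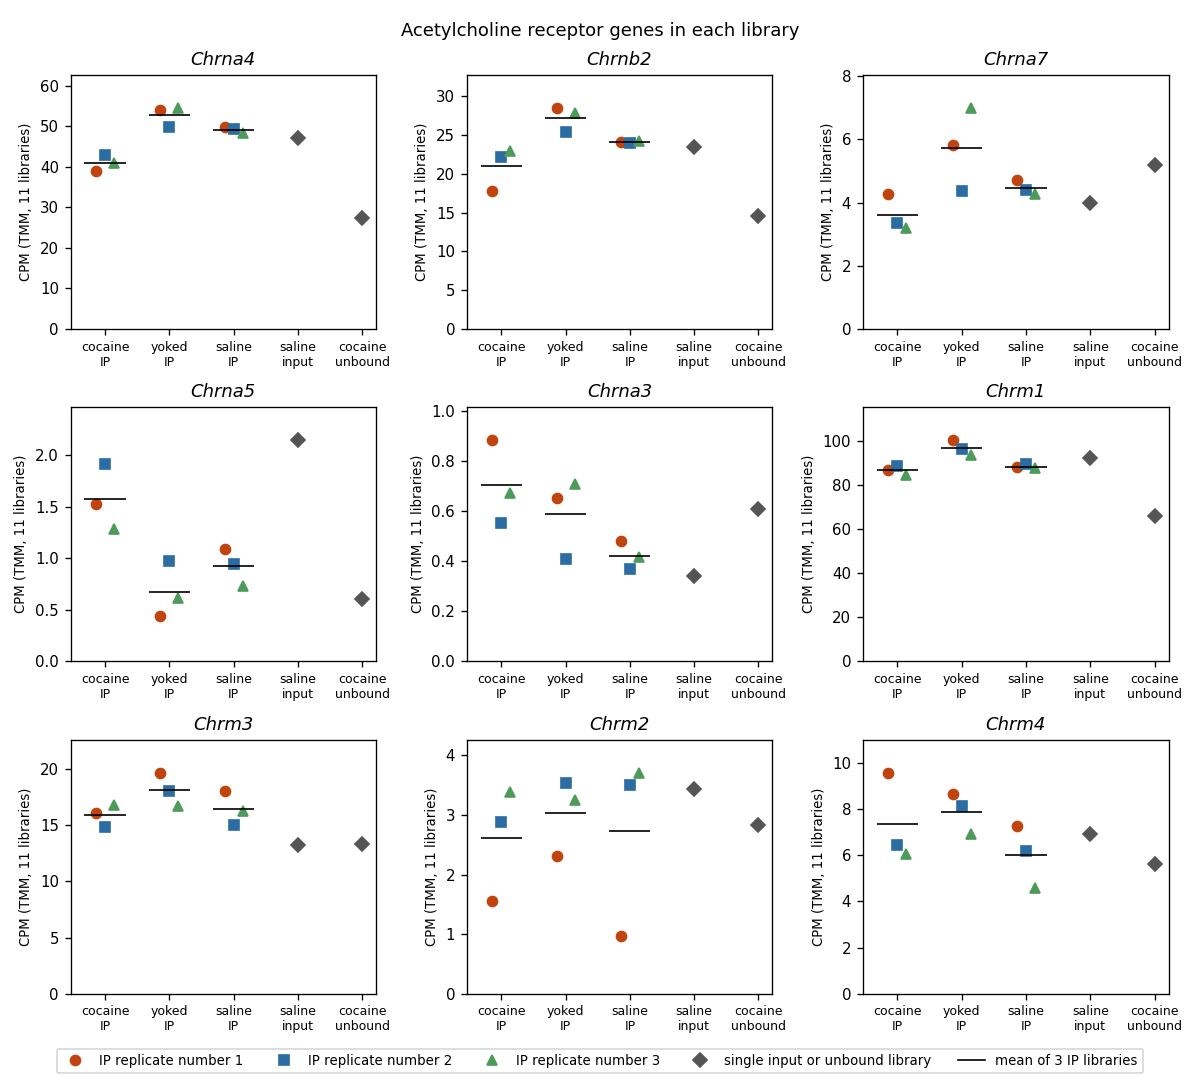
CPM of each receptor gene in all 11 libraries, scaled over the 11; IP libraries are marked by replicate number, bars are means of 3 IP libraries, and diamonds are the single input and unbound libraries. Chrna4 and Chrnb2 were lower, and Chrna5 higher, in the 3 cocaine libraries than in the 3 yoked libraries, and Chrm2 was lowest in the libraries numbered 1.

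Cocaine against saline shares the cocaine libraries with the comparison above and the saline libraries with the next. Saline libraries 1, 2 and 3 had 49.9, 49.1 and 48.2 CPM of Chrna4 and 24.1, 24.0 and 24.2 CPM of Chrnb2. Both genes were below saline in every cocaine library, with log2 fold changes of −0.25 ± 0.13 for Chrna4 (SE; unadjusted p = 0.0869) and −0.19 ± 0.15 for Chrnb2 (SE; unadjusted p = 0.233) in edgeR. Their 95% intervals, −0.55 to 0.04 and −0.53 to 0.15, both include 0, and the value of Chrnb2 was −0.10 without cocaine library 1 and −0.09 with the length trend removed.

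Chrna5 had 57, 36 and 28 counts in saline libraries, or 1.09, 0.944 and 0.728 CPM, all below the cocaine libraries. Its log2 fold change against saline was 0.78 ± 0.38 (SE; 95% interval −0.09 to 1.65, unadjusted p = 0.0722 in edgeR). Chrna3 had 0.903, 0.554 and 0.669 CPM in cocaine libraries, against 0.479, 0.367 and 0.416 CPM in saline libraries. The groups did not overlap, and the log2 fold change was 0.75 ± 0.43 (SE; 95% interval −0.22 to 1.71), on 25, 14 and 16 counts in saline libraries. Chrna7 overlapped saline, with 4.73, 4.38 and 4.26 CPM in saline libraries and a log2 fold change of −0.30 ± 0.23 (95% interval −0.82 to 0.23).

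The muscarinic genes overlapped between cocaine and saline. Chrm1 had 88.2, 89.2 and 87.3 CPM in saline libraries, and its log2 fold change of −0.01 ± 0.13 had a 95% interval of −0.30 to 0.28. Chrm3, at 18.1, 15.0 and 16.1 CPM in saline libraries, differed by −0.04 ± 0.16, and Chrm2 by −0.05 ± 0.49. Chrm4 had 9.81, 6.44 and 6.02 CPM in cocaine libraries, against 7.28, 6.16 and 4.55 CPM in saline libraries, a log2 fold change of 0.31 ± 0.26 (SE; 95% interval −0.27 to 0.89). Single libraries moved this value, to 0.05 without cocaine library 1, 0.14 without saline library 3 and 0.47 without saline library 1, and it was 0.12 with the length trend removed.

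For cocaine against saline edgeR and DESeq2 called 0 of all genes tested (0% in edgeR) and no receptor gene, with adjusted p = 1 for all 9. At an unadjusted p under 0.05 in edgeR there were 0 receptor genes and 168 genes in all (1.02%). The libraries did not overlap for 4 of 9 receptor genes, against 5.39% of all genes: Chrna5 and Chrna3 were higher in cocaine (3.11% of all genes), Chrna4 and Chrnb2 lower (2.28% of all genes). The median log2 fold change was −0.04 over the receptor genes and 0.03 over all genes.

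Yoked against saline asks what differed in the yoked controls, with the saline libraries used again. Of the 9 receptor genes, 8 had a positive log2 fold change, with a median of 0.17 beside 0.00 over all genes, and the exception was Chrna5 at −0.44 ± 0.39 (SE; 95% interval −1.32 to 0.44). The Chrna5 value was −0.21 without yoked library 1, −0.79 without yoked library 2 and −0.06 without every library numbered 1. Chrnb2 and Chrm1 were above saline in every yoked library, at log2 fold changes of 0.19 ± 0.15 (95% interval −0.15 to 0.52) and 0.14 ± 0.13 (95% interval −0.15 to 0.43). They were the only 2 of the 9 whose libraries did not overlap, against 4.29% of all genes (2.14% higher and 2.15% lower in yoked). The remaining genes ranged between a log2 fold change of 0.11 ± 0.13 for Chrna4 and 0.49 ± 0.43 for Chrna3. For Chrm4, yoked libraries had 8.74, 8.09 and 6.95 CPM, and the log2 fold change was 0.40 ± 0.26 (95% interval −0.18 to 0.98). No gene passed in edgeR or DESeq2 (0% in edgeR), with adjusted p = 1 for each receptor gene in edgeR, and at an unadjusted p under 0.05 there were 0 receptor genes and 66 genes in all (0.402%). A test for any difference among the 3 groups also called no receptor gene (0% of 16417 genes in edgeR).

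Markers of layer 5, of layer 6, of inhibitory interneurons and of 10 other cell classes or RNA types gave no call in any of these 3 comparisons. No gene at all was called in them (0% of 16417 genes in edgeR), so the lack of marker calls does not show equal composition. The interneuron sum was 569.2 to 1068 CPM in cocaine libraries, 684.1 to 891.5 CPM in yoked libraries and 533.4 to 935.1 CPM in saline libraries, and the layer 6 sum was 223.6 to 378.1, 242.1 to 344.0 and 229.4 to 383.3 CPM in cocaine, yoked and saline libraries. The endothelial and mural sum was 23.5 to 25.4 CPM in cocaine libraries and 22.2 to 36.2 CPM in yoked libraries, against 30.3 to 32.5 CPM in saline libraries, with no overlap between cocaine and saline. Its 12 genes had a median log2 fold change of −0.62 for cocaine against saline and −0.39 for cocaine against yoked. For cocaine against yoked the 8 nuclear noncoding RNA genes had a median of −0.59, and the medians of the other lists lay between −0.12 and 0.14. For cocaine against saline the medians outside the endothelial and mural list ran from −0.23 (nuclear noncoding RNA) to 0.49 (microglia). For yoked against saline the medians of all lists ran from −0.17 (layer 5) to 0.345 (microglia). The part of these genes in the results for the receptor genes was not tested.

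**Figure D3:**
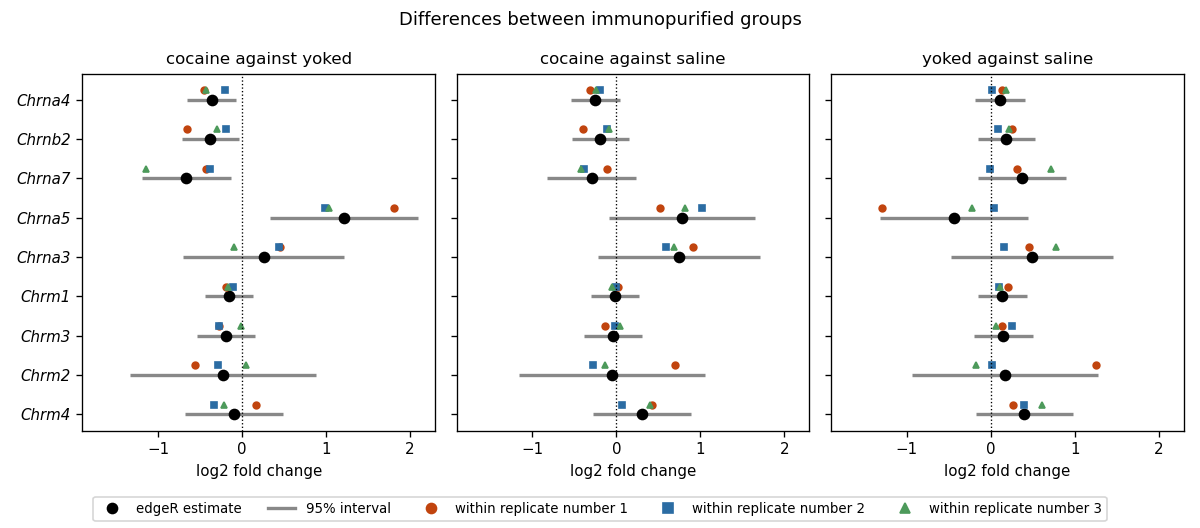
log2 fold changes of the receptor genes between IP groups: black points are edgeR estimates with 95% intervals, and coloured marks are the differences within each replicate number. For cocaine against yoked the interval of Chrna5 ran from 0.34 to 2.10, and those of Chrna4, Chrnb2 and Chrna7 lay below 0, before adjustment over all genes.

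The proportion of α5 to α4 transcript in a library does not depend on how libraries are scaled. In cocaine libraries 1, 2 and 3 there were 3.91, 4.48 and 3.14 Chrna5 counts per 100 Chrna4 counts, against 0.818, 1.96 and 1.14 in yoked libraries and 2.19, 1.92 and 1.51 in saline libraries. Each cocaine library thus had a higher proportion than any of the other 6 IP libraries. This had to follow, as Chrna5 was highest and Chrna4 lowest in the cocaine libraries, and it is no further evidence. The input, from the saline group, had 4.56 and the unbound library 2.21. By contrast, Chrna4 counts per Chrnb2 count kept to a narrow range of 1.79 to 2.19 in all 11 libraries. Across the 9 IP libraries, log2 CPM of Chrna4 and Chrnb2 had a Pearson r of 0.904, and Chrna5 had r = −0.858 with Chrna4 and −0.832 with Chrnb2; these libraries share groups, lanes and replicate numbers, and the values are descriptions.

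**Figure D4:**
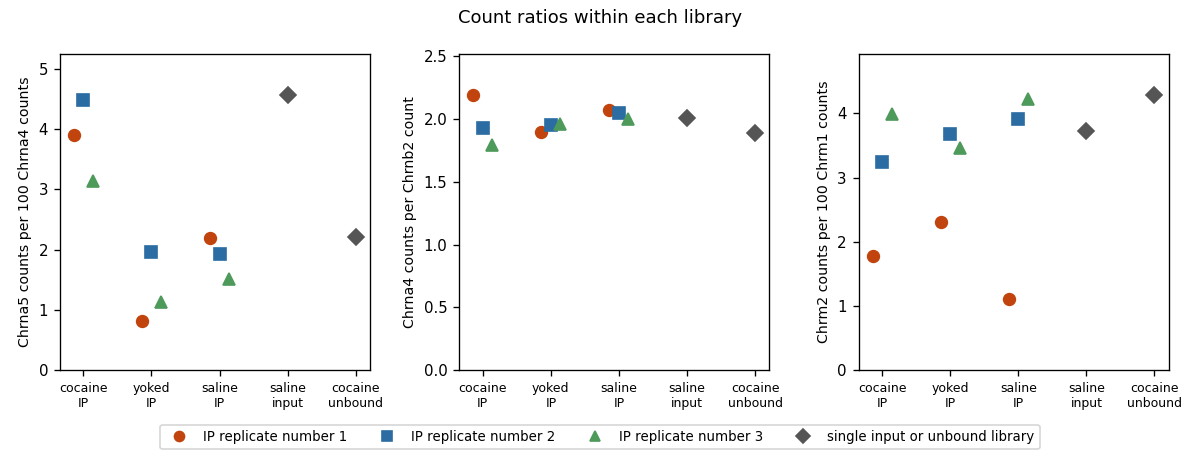
Ratios of raw counts within each library: Chrna5 per 100 Chrna4, Chrna4 per Chrnb2, and Chrm2 per 100 Chrm1 counts. The first was 3.14 to 4.48 in cocaine libraries and 0.818 to 2.19 in yoked and saline libraries, and the third was 1.11 to 2.31 in number 1, against 3.25 to 4.23 in the other IP libraries.

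For number 1 against 2 and 3, 2 of the 9 receptor genes passed, beside 55.3% of all genes. Both are muscarinic genes of the Gi/o class, and they moved in opposite directions. The libraries numbered 1 were lower in Chrm2, which encodes M2, an autoreceptor on cholinergic terminals that is also found on interneurons, with 1.59, 2.34 and 0.977 CPM in cocaine, yoked and saline library 1. The other 6 IP libraries had 2.88 to 3.69 CPM, so that all 3 libraries numbered 1 lay below them. The log2 fold change of number 1 against the mean of 2 and 3 was −1.09 ± 0.26 (SE; adjusted p = 0.0022, edgeR quasi-likelihood test with group in the model, 3 against 6 libraries). Chrm4, which encodes M4, was higher in the libraries numbered 1, with 9.81, 8.74 and 7.28 CPM in cocaine, yoked and saline library 1, against 4.55 to 8.09 CPM in the other 6. These ranges overlapped, although number 1 was the highest within each group, and the log2 fold change was 0.45 ± 0.15 (SE; adjusted p = 0.0189 in edgeR). The other 7 genes had log2 fold changes between −0.08 and 0.38, with adjusted p of 0.257 to 0.93. Chrna4 was at 0.01 ± 0.10, with a 95% interval of −0.20 to 0.22.

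Most genes of the whole table differed by number: 55.3% passed for number 1 against 2 and 3 (27.6% higher, 27.7% lower), and 47.7% passed a test of any difference among the 3 numbers. In that last test 2 of the 9 receptor genes passed, Chrm2 (adjusted p = 0.00793) and Chrm4 (adjusted p = 0.0376). Chrm2 was the only 1 of the 9 whose libraries numbered 1 did not overlap the other 6, against 46.4% of all genes (24.1% lower, 22.4% higher). Number 3 against number 2 called no receptor gene and no gene at all (0%) in edgeR. The Chrm4 call for number 1 against 2 and 3 was lost without cocaine library 1 (adjusted p = 0.102), cocaine library 2 (0.0505) or saline library 1 (0.0721) in edgeR. With a trend by gene length removed, its log2 fold change in that contrast was 0.01 (adjusted p = 0.956 in edgeR). For number 1 against 2 and 3, Chrm2 was at −1.40 to −0.75 with each library left out in turn, with adjusted p of 0.000974 to 0.0313 in edgeR. In the test of any difference among numbers, no receptor gene passed without saline library 1, both passed without cocaine library 2 or yoked library 1, and 1 passed when any of the other 6 IP libraries was left out.

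Several cell type markers moved with the same split. In the libraries numbered 1 the summed markers of inhibitory interneurons were 533.4 to 684.1 CPM, against 810.0 to 1068 CPM in the other 6, and 10 of 12 of these markers were lower and 1 higher in edgeR. For layer 5, the sum was 1347 to 1559 CPM in number 1, against 738.6 to 944.5 CPM in the rest, with 11 of 12 markers higher and none lower. For cholinergic neurons the sum was 4.73 to 7.39 CPM in number 1, against 6.84 to 10.99 CPM in the rest, with 3 of 7 tested markers lower and none higher. Chat, Slc18a3 and Slc5a7 were not among those that passed. Their log2 fold changes were 0.007 (adjusted p = 0.991), −1.02 (0.15) and −0.44 (0.201) in edgeR. The defining genes Chat and Slc18a3 had 11 to 40 and 3 to 36 counts per library, and Gbx2 had 0 or 1. Glial markers and nuclear RNA differed further. Astrocyte markers summed to 1070 to 1478 CPM in number 1, against 2450 to 3017 CPM in the rest (8 of 12 lower, 1 higher), and oligodendrocyte markers to 635.5 to 803.3 CPM, against 1462 to 1997 CPM (10 of 12 lower). Oligodendrocyte precursor markers summed to 42.0 to 55.7 CPM in number 1, against 90.7 to 122.8 CPM in the rest (7 of 8 lower, 1 higher). Nuclear noncoding RNA summed to 206.3 to 415.8 CPM in number 1, against 2444 to 7250 CPM in the rest (7 of 8 lower), and reads outside annotated genes were 6.28% to 7.29% of entries, against 10.3% to 15.5%. The part of these cells and RNA types in the differences of Chrm2 and Chrm4 was not tested.

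**Figure D5:**
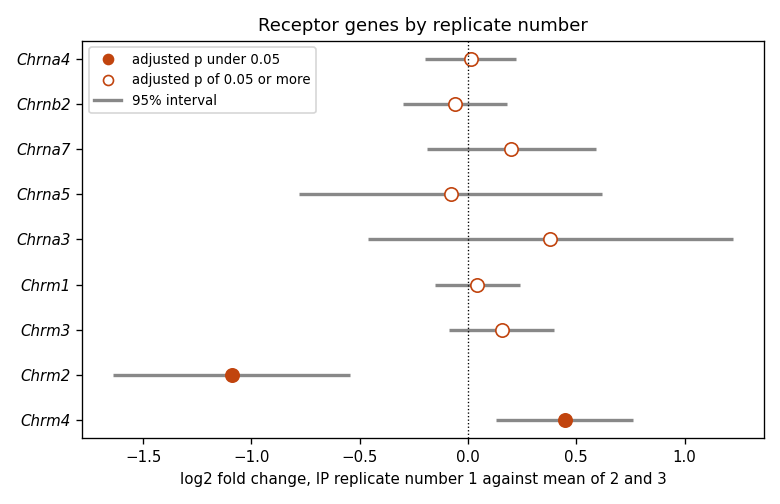
log2 fold change of IP libraries numbered 1 against the mean of numbers 2 and 3 for each receptor gene, with 95% intervals; filled points passed an adjusted p of 0.05 in edgeR. Chrm2 at −1.09 and Chrm4 at 0.45 passed, beside 55.3% of all genes, and the other 7 lay between −0.08 and 0.38.

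Saline IP over input asks whether tagged ribosomes hold more of a transcript than the tissue as a whole. As there is 1 input library, each IP library was set against it without a test (log2 ratio, prior count 2, 13478 genes averaging 1 CPM or more). Of the 9 genes, 8 reached that level and Chrna3 did not. None was 2-fold different from the input in all 3 saline libraries, beside 0.0742% of genes 2-fold higher and 0.0445% 2-fold lower. Chrna5 came nearest, with 1.10, 0.943 and 0.728 CPM in saline IP libraries 1, 2 and 3, against 2.13 CPM in the input. All 3 IP libraries were below the input, by log2 ratios of −0.93, −1.14 and −1.49 (mean −1.19 ± 0.28, SD). The input value rests on 88 counts, with an exact 95% Poisson interval of 70.6 to 108.4. Nuclear noncoding RNA summed to 364.5, 4839 and 5683 CPM in saline IP libraries 1, 2 and 3, against 5228 CPM in the input. Astrocyte markers summed to 1070, 2605 and 2653 CPM, against 2619 CPM, and oligodendrocyte markers to 635.5, 1816 and 1462 CPM, against 1700 CPM. In these sums libraries 2 and 3 were thus near the input, and only library 1 was apart. The part of this in the ratios of the receptor genes was not tested.

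Chrm3, a Gq-coupled receptor, was above the input in each saline library, at 18.1, 15.0 and 16.1 CPM in the IP libraries, against 13.1 CPM in the input. The mean log2 ratio was 0.32 ± 0.14 (SD, n = 3). Chrna4, Chrnb2 and Chrna7 were also above it in all 3, by only 0.07 ± 0.03, 0.05 ± 0.01 and 0.17 ± 0.08. Together, 4 genes were above the input in all 3 libraries (18.9% of all genes) and 2, Chrna5 and Chrm1, below it in all 3 (17.6% of all genes), with Chrm1 at −0.06 ± 0.02. Chrm2 had 0.980, 3.48 and 3.69 CPM in the saline IP libraries, against 3.41 CPM in the input, so that only library 1 was apart from it, at a log2 ratio of −1.75. Chrm4 averaged −0.22 ± 0.34. Beside these ratios edgeR was run on all 11 libraries, the spread coming from the IP groups, and no gene passed (0% of 18070 genes).

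Cocaine IP over unbound sets the same kind of ratio against the RNA left after the pull-down in the cocaine group, over 13527 genes. Chrna5 passed 2-fold upward in each of the 3 cocaine IP libraries, with 1.54, 1.91 and 1.27 CPM, against 0.594 CPM in the unbound library. The log2 ratios were 1.29, 1.59 and 1.03 (mean 1.30 ± 0.28, SD). It was the only receptor gene past 2-fold, beside 0.399% of genes 2-fold higher and 2.21% 2-fold lower. The unbound value rests on 12 counts (exact 95% Poisson interval 6.20 to 20.96) in the shallowest library, and with a prior count of 5 no receptor gene passed 2-fold.

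Chrna4 and Chrnb2 were also above the unbound library in every cocaine IP library. Chrna4 had 39.4, 42.5 and 40.6 CPM in the IP libraries, against 26.9 CPM in the unbound library, a mean log2 ratio of 0.60 ± 0.06 (SD). For Chrnb2 the mean log2 ratio was 0.54 ± 0.18. Chrm1 followed at 0.42 ± 0.04, Chrm4 at 0.38 ± 0.37 and Chrm3 at 0.28 ± 0.09, so that 6 genes with Chrna5 were above the unbound library in all 3 IP libraries (31.8% of all genes). Chrna7 was the only 1 below it in all 3 (25.7% of all genes), with 4.30, 3.32 and 3.16 CPM in the IP libraries, against 5.10 CPM in the unbound library (mean log2 ratio −0.51 ± 0.24). Chrm2 averaged −0.17 ± 0.56. Scaled over all 11 libraries, the saline input was itself above the unbound library for 5 of these genes. Its log2 ratios were 0.77 for Chrna4, 0.67 for Chrnb2, 0.48 for Chrm1, 0.28 for Chrm4 and 1.26 for Chrna5, and −0.005 for Chrm3. Against that input, every cocaine IP library was lower in Chrna4 (−0.267, −0.132 and −0.196), Chrnb2, Chrm1 and Chrna5 (−0.387, −0.128 and −0.565). Chrna5 in cocaine IP libraries thus lay above the unbound library and below the input. In edgeR over all 11 libraries, 2 genes were higher (0.0111%) and 8 lower (0.0443%) than the unbound library, no receptor gene among them, and the lowest adjusted p of a receptor gene was 0.366, for Chrna4. The nuclear noncoding RNA sum was 206.3 to 5341 CPM in cocaine IP libraries, against 15570 CPM in the unbound library. Reads over several genes were 1.72% to 1.83% of entries in cocaine IP libraries, against 7.34% in the unbound library, and reads aligned to several places 35.8% to 47.0%, against 28.3%. Their part in these ratios was not tested.

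The wider cholinergic system was read from lists of 67 genes, of which 66 were in the files and 59 passed the expression filter. None passed in any comparison of the 3 groups (0% called). For cocaine against yoked the lowest p belonged to Trpc5, a cation channel gated below Gq-coupled receptors, at a log2 fold change of −0.45 ± 0.18 (SE; unadjusted p = 0.0363), and to Itpr1, a calcium release channel of the endoplasmic reticulum, at −0.30 ± 0.18 (unadjusted p = 0.123) in edgeR. For cocaine against saline they were Trpc5 at −0.47 ± 0.18 (unadjusted p = 0.0302) and Plcb2, a phospholipase C, at −0.51 ± 0.23 (unadjusted p = 0.0516). For yoked against saline they were Plcb2 at −0.49 ± 0.23 (unadjusted p = 0.0578) and Chrna1, the muscle nicotinic α1 subunit, at −0.80 ± 0.52 (unadjusted p = 0.161). The median log2 fold change for cocaine against yoked was −0.14 in the Gq list, −0.18 in the Gi/o list and 0.12 in the list of chaperones and Ly6 proteins. It was −0.06 in acetylcholine handling and −0.20 among other receptor genes, beside 0.01 over all genes.

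By replicate number 35 of the 59 listed genes passed (59.3%, beside 55.3% of all genes), 18 higher and 17 lower in number 1. Chaperones and Ly6 proteins help nicotinic receptors reach the membrane or tune them there. Their list also holds Nptn and Vsnl1, which are not Ly6 proteins. Beside 27.6% of all genes higher and 27.7% lower in number 1, this list counted 8 higher and 1 lower of 10. Among them Ly6h was higher by a log2 fold change of 1.02, Nptn by 0.77, Tmem35 (the chaperone NACHO) by 0.71, Ly6e by 0.65, Lynx1 by 0.39, Vsnl1 by 0.37, Ric3 by 0.35 and Lypd1 by 0.28, and Lypd6 was lower, at −1.51. In acetylcholine handling, the esterase gene Ache was higher, at 0.68, whereas the choline transporter gene Slc44a1 (−1.33), the esterase gene Bche (−0.94) and Prima1, the membrane anchor of acetylcholinesterase (−1.08), were lower.

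The Gq list counted 5 higher and 5 lower of 18, beside 27.6% of all genes higher and 27.7% lower. Among the higher genes, Trpc4 was at a log2 fold change of 0.96, Prkcb at 0.46, Plcb4 at 0.33 and Trpc5 at 0.29. Among the lower genes were the potassium channel subunit Kcnq3 (−0.44), the calcium release channel Itpr2 (−0.70), the kinase Prkca (−0.68) and the G protein Gnaq (−0.58). In the Gi/o list, against the same background, 4 of 18 were higher, Gnai1 at 0.56, Adcy8 at 0.52, Adcy3 at 0.48 and Rgs7 at 0.30. The 7 lower ones were the inward rectifiers Kcnj5 (−1.88) and Kcnj6 (−1.24), the RGS proteins Rgs8 (−1.53) and Rgs6 (−0.56), the cyclases Adcy1 (−1.36) and Adcy5 (−0.41), and Gnai2 (−0.29). Among other receptor genes Chrnb1, the muscle β1 subunit, was lower, at −2.30, and it was the only 1 of 6 tested that passed.

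The receptor genes outside the 9 were sparse. Chrnb3 had 63 to 162 counts per library and Chrm5 2 to 12. Chrnb4, which neighbours Chrna3, had 0 to 16 counts and was at 0 in 4 libraries. Chrnd, a muscle subunit, had no count in any library, where a count of 0 allows up to 3 counts, or 0.0557 to 0.143 CPM by depth.

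Genes whose log2 CPM followed a receptor gene most closely over the 9 IP libraries were named by Pearson r among the genes that averaged 5 CPM or more, 9941 or 9942 for each. For Chrna4 these were Ntrk3 (r = 0.968), Lrp1b (0.942) and Oprk1 (0.932), and for Chrnb2 Adcy9 (0.959), Oprk1 (0.956) and Tenm4 (0.955), so that Oprk1 was near both. For Chrna5 they were Zfp874b (0.919), Fam114a2 (0.874) and Ift43 (0.859). Chrm2 was followed by Dot1l (0.970) and Grik1 (0.966), among others, and Chrm4 by Minpp1 (0.939), Vstm2b (0.926) and Arl4d (0.921). The closest for Chrna7 was Sel1l3 (0.897), for Chrna3 Optn (0.923), for Chrm1 Mtdh (0.906) and for Chrm3 Trappc9 (0.924). These are the highest of many correlations over 9 libraries that share groups, lanes and numbers. After group and number were removed only 4 degrees of freedom remained, and the 27 highest values then ran from 0.984 to 1.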

How the data were processed

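The authors used STAR 2.0.0e, HTSeq and the mm10 build for the 11 libraries, per the submitters' processing notes; the deposited values are raw counts, 1 per gene symbol. The sources used here do not give annotation, HTSeq version or strand setting, and reads over several genes or places are outside the counts. The 6 entries that name no gene were left out; reads in genes were 44.9% to 52.5% of all entries. Counting error is small for Chrna4 and Chrm1 and large for Chrna5 and Chrna3.

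One model in edgeR 4.0.16 under R 4.3.3 took in all 9 IP libraries (TMM, filterByExpr, robust quasi-likelihood, Benjamini-Hochberg over 16417 genes, threshold 0.05) with 3 group means. CPM beside these comparisons is scaled over the 9 IP libraries, CPM beside the input or unbound library over the 4 libraries compared, and CPM of markers, levels per length and library plots over all 11. Deviations of same-numbered libraries from their group means correlated at 0.376 to 0.794 in every pair. As the libraries numbered 1 stood apart in each group, those numbered 2 and 3 deviate the other way. The correlations therefore cannot show whether numbers 2 and 3 pair samples. Number effects come from the fit with group and number. Alternatives were DESeq2 1.42.0, RLE size factors, no filter, the number as a block, a length trend removed, no Rn45s, libraries left out, and other prior counts, folds and minimums. Gene positions and lengths are GENCODE M21 (GRCm38, the assembly of mm10), promoters RefSeq. All 9 receptor genes are named in every comparison; of the cholinergic lists, genes that pass or else the 2 with the lowest p per comparison; and of the genes alike, up to 3 with the highest r; a few genes these rules name are not reported here. Members and lists were chosen with earlier results of these data known. The fits were also run on counts simulated from the fit with group and number, in which no gene of low counts was changed. That run says nothing of Chrna5 or Chrna3, and no result here rests on it.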

Additional observations from a re-analysis of the deposited data

How the results depend on the processing

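No alternative gave a call for a receptor gene, or for any gene, in the 3 comparisons of groups. These were DESeq2, RLE size factors, no low-count filter, the replicate block, the length trend removed with and without the block, all 11 libraries in the fit, no Rn45s, each library left out, and every library numbered 1 left out. The replicate block changed no call; under it the lowest adjusted p of a receptor gene was 0.143 for cocaine against yoked and 0.397 for cocaine against saline in edgeR. Small differences turned direction, with no call on either side. For cocaine against saline, the log2 fold change of Chrm2 was 0.04 with the replicate block and 0.089 with the length trend removed as well, that of Chrm1 0.061 and 0.054 with the length trend removed without and with the block, and that of Chrm3 0.025 and 0.026. Without every library numbered 1, Chrm3 for cocaine against saline was 0.017 and Chrm2 for yoked against saline −0.08. With 1 library left out, Chrm2 ran from −0.46 to 0.23 for cocaine against saline, −0.45 to 0.04 for cocaine against yoked and −0.24 to 0.45 for yoked against saline, Chrm3 from −0.133 to 0.039 for cocaine against saline, and Chrm4 from −0.349 to 0.027 for cocaine against yoked.

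By replicate number, Chrna4 was −0.01 with DESeq2 and −0.012 with RLE size factors, and Chrnb2 was 0.22 with the length trend removed. With 1 library left out, Chrna4 ran from −0.02 to 0.054, Chrna5 from −0.34 to 0.19 and Chrnb2 from −0.14 to 0.06. With the length trend removed (14556 genes with a length), 1 receptor gene passed the number test, and for number 1 against 2 and 3 Chrm1 (0.22, adjusted p = 0.0272) and Chrm3 (0.32, adjusted p = 0.0212) passed while Chrm4 did not. With 1 library left out, 0 to 2 passed the number test, 0 without saline library 1. Of the fractions, Chrna5 passed against the input (1 receptor gene) at 1.5-fold and without saline library 1 (0 to 1 over the libraries left out). Against the unbound library 0 receptor genes passed with a prior count of 5, a minimum of 5 CPM or edgeR over 11 libraries; the minimum of 5 CPM leaves Chrna5 out. With the longest transcript as the length, Chrnb2 averaged 3.77, Chrm3 3.88 and Chrna7 1.64 CPM per kilobase. Other causes were not tested. Depth limits Chrna5 and Chrna3, with 12 to 88 and 12 to 37 counts per library.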
